A study of Homo sapiens with 2 samples.

Results

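hsa-miR-126-5p and hsa-miR-126-3p (below, miR-126-5p and miR-126-3p) are the 2 mature arms of 1 hairpin, MIR126. They were chosen by name and are 2 of the 793 distinct mature miRNAs in a count table of exosomal small RNA. Exosomes are small membrane vesicles shed by cells, here taken from cultures of MHCC97H, a strongly metastatic hepatocellular carcinoma line, and of HepG2, a line grown from a liver tumor and likewise labelled hepatocellular carcinoma. Each line gave 1 library, and no treatment and no normal liver cells are among the samples used here. Serum in the medium of both lines was described as free of exosomes, and ultracentrifugation of the medium gave the vesicles. The comparison asks how the miRNA load of exosomes differs between the lines. Since 1 library stands for each line, differences have no replicate check and were not tested, and the cell line cannot be told apart from its culture, vesicle or library preparation.

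miR-126 is best known as the miRNA of endothelial cells, the lining of blood vessels, and is also carried by platelets and other blood cells. It is made from a hairpin within EGFL7, a gene for a protein secreted by endothelial cells. The nuclease Drosha cuts such a hairpin from its transcript and Dicer removes its loop, which leaves a duplex of a 5p and a 3p arm. 1 arm is loaded into an Argonaute protein and finds its targets through its seed, bases 2 to 8. The 3p arm is usually the more abundant arm of miR-126. It represses SPRED1 and PIK3R2, inhibitors of signaling by vascular endothelial growth factor, and so supports vessel integrity. The 5p arm acts in endothelial cells too, where it represses DLK1, an inhibitor of Notch signaling. In many cancers miR-126 is described as reduced.

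The sequences of both arms and of their hairpin are shown because the arms differ in seed and, below, in how they were divided between the libraries. They come from RefSeq (GRCh38.p14), where both arms were matched by name. In the mature arms capitals mark the seed, and in the hairpin they mark the 2 arms.
miR-126-5p: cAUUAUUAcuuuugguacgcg
miR-126-3p: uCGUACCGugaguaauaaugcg
MIR126 hairpin: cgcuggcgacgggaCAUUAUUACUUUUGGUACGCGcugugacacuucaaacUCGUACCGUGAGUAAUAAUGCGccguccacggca

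The hairpin lies on the plus strand of chromosome 9, at chr9:136670602-136670686. miR-126-5p spans 136670616 to 136670636 and miR-126-3p spans 136670653 to 136670674. In GENCODE release 29 (GRCh38), 5 EGFL7 transcripts on the same strand span the hairpin, and it is intronic in all 5. The EGFL7 gene runs from 136658856 to 136672678. miR-126-5p has 21 bases, of which 13 are A or U, a GC content of 38.1%. miR-126-3p has 22 bases, of which 12 are A or U, a GC content of 45.5%. Minimum free energy folding of the 85 bases of the hairpin (-40.1 kcal/mol) paired 18 of the 21 bases of miR-126-5p with bases of miR-126-3p. The seed is AUUAUUA in miR-126-5p and CGUACCG in miR-126-3p, and 0 other mature miRNAs in the RefSeq table carry either of them. Each arm appears in the count table under 1 entry, and RefSeq gives each 1 hairpin, so reads of either arm are not divided among gene copies.

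The MHCC97H library held 13.3-fold more miRNA reads than the HepG2 library, 304457 against 22831. These totals count miRNA reads with each name entered once, not all sequenced reads. Levels are in CPM, reads of a miRNA after both libraries are brought to the same miRNA total, and a lone read equals 3.28 CPM in MHCC97H and 43.8 CPM in HepG2. Values for HepG2 are therefore the less precise. All intervals are exact 95% intervals that cover counting error only and treat reads as independent. Reads amplified without molecular identifiers are not independent molecules, so the intervals can be too narrow even for that error. The hepatocyte miRNA miR-122-5p was present in both libraries, at 979 CPM in MHCC97H (298 reads, interval 871 to 1096) and 1051 CPM in HepG2 (24 reads, interval 674 to 1564). Messenger RNA was not measured, so genes that define endothelial cells cannot be read here.

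miR-126-3p was an abundant miRNA in both libraries, at nearly the same relative level. It had 1921 reads in MHCC97H and 139 reads in HepG2. These are 6310 CPM in MHCC97H (interval 6031 to 6597) and 6088 CPM in HepG2 (5121 to 7185), so the intervals overlap. By read count it stood at rank 34 of 793 in MHCC97H and at rank 21 in HepG2. It made up 0.631% of miRNA reads in MHCC97H and 0.609% in HepG2. The ratio of MHCC97H over HepG2 was 1.04 (0.872 to 1.24). A difference of a size within that interval was not detectable at this depth.

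miR-126-5p, the rarer arm, was lower in MHCC97H than in HepG2. It had 60 reads in MHCC97H and 26 in HepG2, although the MHCC97H library held far more miRNA reads. These are 197 CPM in MHCC97H (150 to 254) and 1139 CPM in HepG2 (744 to 1668), and the intervals do not overlap. Its rank by read count was 209 of 793 in MHCC97H and 80 in HepG2. The ratio of MHCC97H over HepG2 was 0.173 (0.108 to 0.286), a log2 ratio of -2.53 (-3.22 to -1.81). In the other direction that is a 5.78-fold excess in HepG2, whose counting interval reaches from 3.50 to 9.30.

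**Figure D1:**
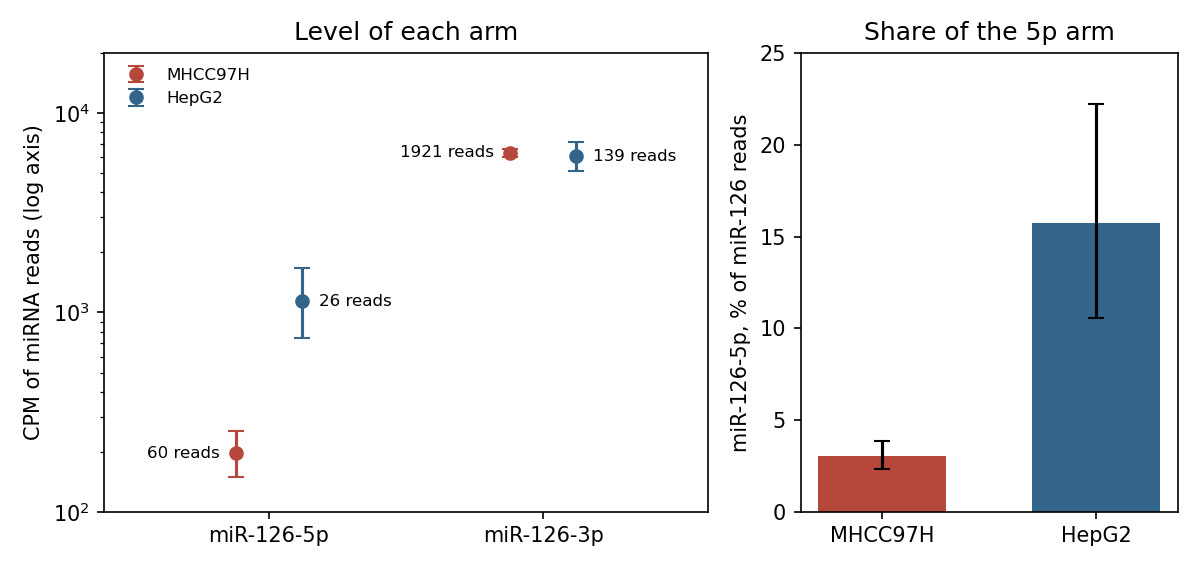
Left, level of each miR-126 arm in CPM on a log axis, with MHCC97H left of HepG2, the reads behind each point and exact 95% counting intervals as bars. Right, miR-126-5p as a percent of all miR-126 reads in each library. miR-126-3p lies at 6310 CPM in MHCC97H and 6088 in HepG2, while miR-126-5p lies at 197 CPM in MHCC97H and 1139 in HepG2.

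A miRNA was called different at 2-fold or more with an interval that excludes 1, among the 543 miRNAs that reached 10 CPM in 1 or both libraries. By this rule 20.4% of the 543 were called higher in MHCC97H and 9.02% higher in HepG2, 111 against 49 miRNAs. That balance turned with the scaling, to 62 against 84 with median centring and to 72 against 73 without the 10 most abundant miRNAs of either library. miR-126-5p was among the 49 called higher in HepG2, and miR-126-3p was called in neither direction. Among the 137 miRNAs that averaged 500 CPM or more, 49.6% were called higher in MHCC97H and 18.2% higher in HepG2. Such an average can be reached through 1 library alone, and 127 of the 137 had reads in both. On log2(CPM + 1), 80 of the 543 miRNAs had a lower ratio than miR-126-5p and 200 had a lower ratio than miR-126-3p. Of the 137 more abundant miRNAs, 9 (6.57%) lay below miR-126-5p and 46 below miR-126-3p. miR-126-5p reached an average of 500 CPM only through HepG2, at 1139 CPM there against 197 CPM in MHCC97H. Its place among the 137 is therefore tied to the filter and is a description only.

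The scaling moves both arms together. Over the 543 miRNAs the log2 ratio had a median of 1.12. Measured from that median, the log2 ratio was -3.64 for miR-126-5p and -1.06 for miR-126-3p. Of the 543, however, 181 had 0 HepG2 reads, and with zero counts set to 3 reads the median was -0.74. That setting is an upper limit for a count of 0 and equals 131 CPM in HepG2, so this median is a low extreme. Measured from it, the log2 ratio was -1.79 for miR-126-5p and 0.79 for miR-126-3p. Among the 543, the side on which miR-126-3p lies thus depends on how zero counts are entered. Among the 137 miRNAs that averaged 500 CPM or more, the median was 0.99. Measured from that one, the log2 ratio was -3.52 for miR-126-5p and -0.94 for miR-126-3p. The median ratio of those of the 137 with reads in both libraries was 1.87. With ratios divided by it, the ratio of miR-126-3p became 0.554 (0.466 to 0.663) and that of miR-126-5p 0.0925 (0.0575 to 0.153). With totals that left out the 10 most abundant miRNAs of either library, the ratios were 0.654 (0.550 to 0.782) for miR-126-3p and 0.109 (0.0678 to 0.180) for miR-126-5p. The near equality of miR-126-3p therefore holds relative to total miRNA reads, and its interval lay wholly below 1 under these 2 scalings. miR-126-5p was called higher in HepG2 under each of the 5 scalings plotted.

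**Figure D2:**
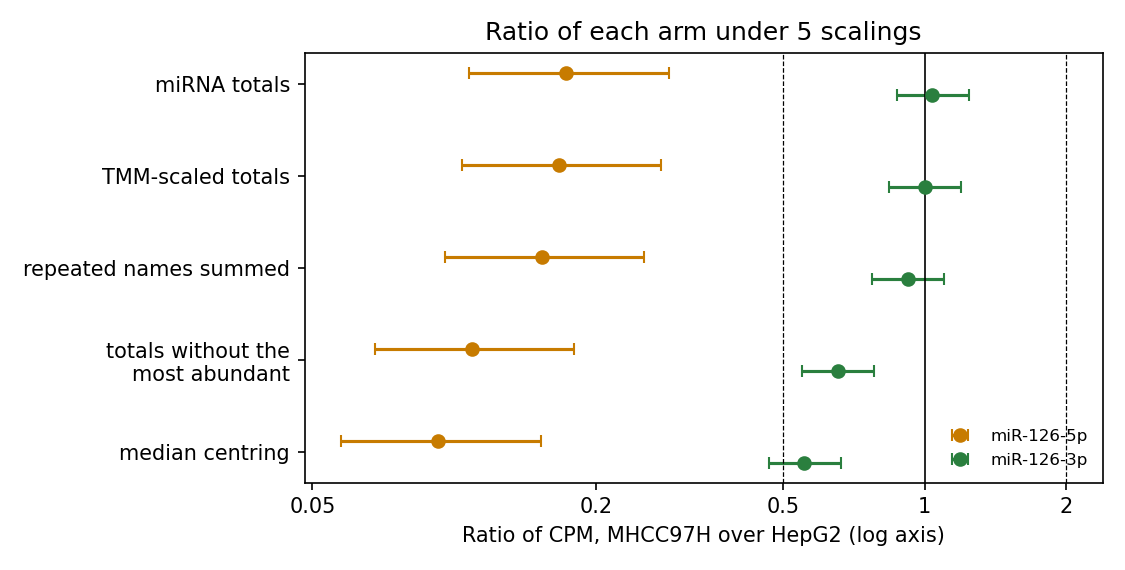
Ratio of CPM of MHCC97H over HepG2 on a log axis for miR-126-5p and miR-126-3p under 5 scalings, with exact 95% counting intervals as bars. The solid line marks equal levels and dashed lines 2-fold. miR-126-5p stays between 0.0925 and 0.173, and miR-126-3p between 0.554 and 1.04.

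The balance between the arms needs no scaling, because both arms are counted in the same library. Of 1981 miR-126 reads in MHCC97H, 3.03% were miR-126-5p (2.32 to 3.88%). Of 165 miR-126 reads in HepG2, 15.8% were miR-126-5p (10.6 to 22.2%). Put as arms, there were 32.0 reads of miR-126-3p per read of miR-126-5p in MHCC97H (24.8 to 42.1) and 5.35 in HepG2 (3.50 to 8.47). miR-126-3p was thus the leading arm in both lines, and the intervals of the shares do not overlap. The odds of a 5p over a 3p read, in MHCC97H over HepG2, had a ratio of 0.167 (0.100 to 0.285). At the MHCC97H share, the 165 reads of HepG2 would hold 5.00 reads of miR-126-5p, against the 26 counted. This odds ratio is the quotient of the ratios of the arms given above, so it restates them without the scaling and is no further measurement. Summed over both arms, miR-126 stood at 6507 CPM in MHCC97H and 7227 CPM in HepG2, a ratio of 0.900 (0.768 to 1.06). Unlike the arm balance, this sum depends on the scaling. Its ratio was 0.481 (0.410 to 0.567) with median centring, which meets the call rule toward HepG2, 0.568 (0.484 to 0.670) without the most abundant miRNAs and 0.800 (0.682 to 0.943) with repeated names summed.

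Other hairpins show how common such a difference in arm balance is between these libraries. The table names both arms of 184 miRNAs, and 79 of these pairs had at least 10 reads in sum in each library. By the same rule of 2-fold and an interval that excludes 1, the 5p share was higher in HepG2 for 16 pairs (20.3%), miR-126 among them, and higher in MHCC97H for 7 pairs (8.86%). Among the 42 pairs with reads of both arms in both libraries, miR-126 had the seventh lowest odds ratio. The pair is thus 1 of several that differed, and the direction toward 5p in HepG2 was the more frequent one.

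In most pairs called, however, the lesser arm was the one more frequent in MHCC97H. For this description, chosen after the values were seen, the lesser arm is the one with the smaller mean share over the libraries. Its share was called higher in MHCC97H for 17 pairs (21.5%) and higher in HepG2 for 6 pairs (7.59%). Among the 32 pairs whose lesser arm was 5p, as in miR-126, the split was near even. There 6 were called higher in MHCC97H and 5 in HepG2. Over all 79 pairs, the 6 called higher in HepG2 were miR-126, miR-142, miR-361, miR-374a, miR-30e and miR-1307. Only for miR-126, miR-374a and miR-1307 among these 6 did the same arm have more reads in both libraries. In HepG2 the 5p and 3p reads were 10 and 5 for miR-361, 47 and 32 for miR-30e and 46 and 59 for miR-142. They were 14 and 18 for miR-374a and 5 and 10 for miR-1307. At such counts the leading arm of these pairs in HepG2 is uncertain. miR-374a-5p made up 15.7% of its pair in MHCC97H and 43.8% in HepG2, on 14 reads in HepG2. miR-1307-5p made up 9.83% in MHCC97H and 33.3% in HepG2, on 5 reads in HepG2. The median share of the lesser arm over the 79 pairs was 5.41% in MHCC97H and 0.769% in HepG2, where 35 pairs had 0 reads of it. At 3.03% in MHCC97H miR-126-5p lay below that median, and at 15.8% in HepG2 it lay above it. Pairs entered with as few as 10 reads in HepG2, where a rare arm can go uncounted. Among the 32 pairs whose lesser arm was 5p, the median 5p share was 5.95% in MHCC97H and 2.60% in HepG2. Of those 32, 22 had a higher 5p share than miR-126 in MHCC97H and 8 in HepG2.

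**Figure D3:**
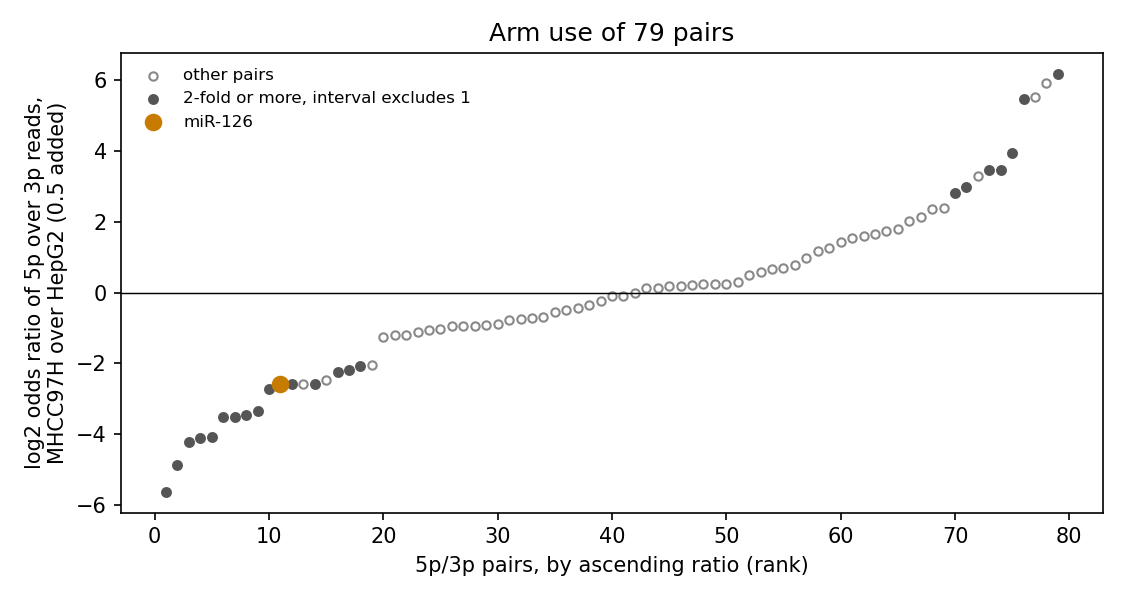
Log2 odds ratio of 5p over 3p reads, MHCC97H over HepG2, for 79 miRNA pairs in ascending order, with 0.5 added to each count. Filled points differ 2-fold or more with an exact interval that excludes 1. miR-126, in orange, is at -2.59, among the 16 pairs called toward 5p in HepG2.

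With 0.5 added to each count, so that pairs with an empty cell can be ordered, miR-126 lay at -2.59 on the log2 scale, at rank 11 from the HepG2 end. The 3 pairs farthest toward 5p in HepG2 were miR-181a, miR-374b and miR-194, each with 0 reads of the 3p arm in HepG2. The 3 farthest toward 5p in MHCC97H were miR-27b, miR-186 and miR-99a. For miR-27b the difference came from 685 reads of the 5p arm in MHCC97H and 0 in HepG2. miR-186 and miR-99a each rest on 1 read of the 3p arm in HepG2, and neither met the interval criterion. miR-126 differs from these 6 in that each of its 4 counts was 26 or more.

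The miRNAs most like each arm were found by distance on log2(CPM + 1) over the 2 libraries. For miR-126-5p they were miR-455-5p, miR-200b-3p, miR-146b-5p, miR-320d and miR-411-5p, at distances of 0.49 to 0.97. miR-455-5p was the nearest, with 223 CPM in MHCC97H and 832 CPM in HepG2. miR-200b-3p, which helps to maintain the epithelial state, had 309 CPM in MHCC97H and 1621 CPM in HepG2. miR-146b-5p, which dampens inflammatory signaling, had 319 CPM in MHCC97H and 1577 CPM in HepG2. For miR-126-3p the nearest were miR-103a-3p, miR-106b-3p, miR-320a-3p, miR-23a-3p and miR-486-5p, at distances of 0.29 to 0.67. miR-103a-3p had 7203 CPM in MHCC97H and 5212 CPM in HepG2. The red cell miRNA miR-486-5p had 8313 CPM in MHCC97H and 4205 CPM in HepG2. With 2 libraries this likeness says only that levels were close in both.

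**Figure D4:**
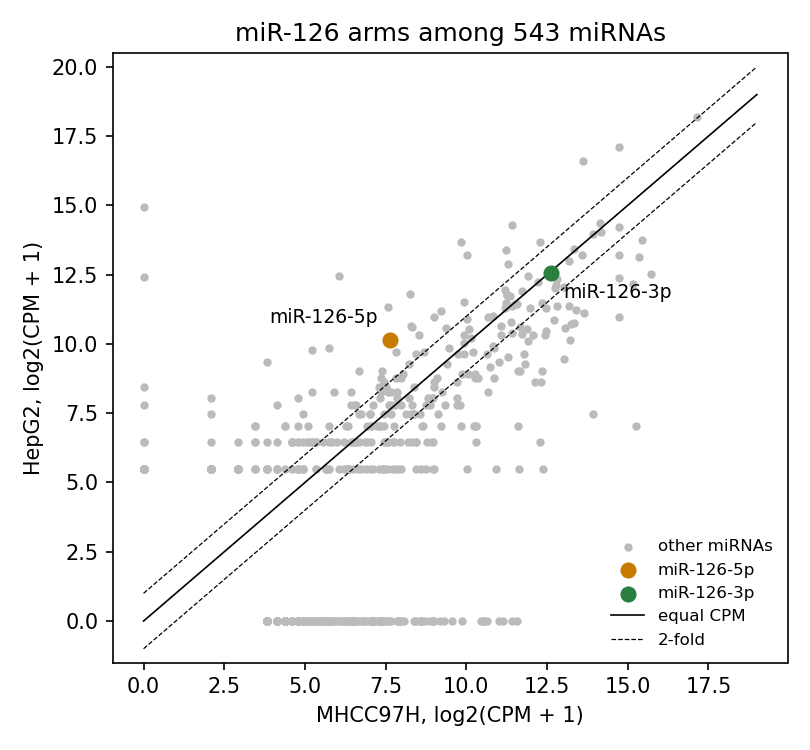
Level in MHCC97H (x) against HepG2 (y) as log2(CPM + 1) for the 543 miRNAs that reached 10 CPM in 1 or both libraries. The solid line marks equal CPM and dashed lines 2-fold. miR-126-3p lies on the line of equal CPM, and miR-126-5p lies above the upper dashed line, on the HepG2 side.

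Among miRNAs linked to endothelium and vessel growth, miR-126-5p was the 1 arm called toward HepG2. Of 36 arms on that list at 10 CPM or more, 13 were called higher in MHCC97H, 1 higher in HepG2 and 22 in neither direction. Without the miR-126 arms 34 remained, with 13 called higher in MHCC97H and 0 in HepG2. Over all 543, 20.4% were called higher in MHCC97H and 9.02% in HepG2. Among miRNAs that averaged 500 CPM or more, these shares were 49.6% and 18.2%, and the list was not matched by abundance. The list's median log2 ratio was 2.47, but 12 of the 36 had no HepG2 read, and with zero counts set to 3 reads the median was 0.39. Over all 543 miRNAs these medians were 1.12 and -0.74. The 4 most abundant members were miR-27a-5p, miR-27b-3p, miR-378a-3p and miR-92a-3p. miR-27a-5p had 39083 CPM in MHCC97H and 131 CPM in HepG2, on 3 reads in HepG2, a ratio of 297 (102 to 1442). miR-378a-3p had 18288 CPM in MHCC97H and 17038 CPM in HepG2, and miR-92a-3p, which restrains vessel growth, had 9292 CPM in MHCC97H and 8059 CPM in HepG2. miR-27b-3p had 27009 CPM in MHCC97H and 18878 CPM in HepG2. The last 3 were called in neither direction, as was miR-126-3p. Many members of this list are also made by other cells, liver cancer cells included.

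Markers of blood cells, which also carry miR-126, were present in both libraries. The 10 arms on that list summed to 14603 CPM in MHCC97H and 30529 CPM in HepG2. Without miR-451a the sums were 11887 CPM in MHCC97H and 10424 CPM in HepG2, so the HepG2 excess of the sum came from that miRNA. The median log2 ratio of the 10 arms was 0.15, beside 1.12 over all 543. With zero counts set to 3 reads these medians were -0.10 and -0.74. In all, 6 of the 10 had a ratio above 1, among them both arms of miR-144, miR-150-5p and miR-223-5p. The intervals of these named arms all include 1, on 1 to 18 reads in HepG2. Another of the 6, miR-486-3p, rests on 5 reads in MHCC97H and 0 in HepG2. None of the 10 was called higher in MHCC97H, and 2 were called higher in HepG2, the red cell miRNA miR-451a and the leukocyte miRNA miR-142-3p. Over all 543 these shares were 20.4% for MHCC97H and 9.02% for HepG2. miR-451a had 2716 CPM in MHCC97H and 20104 CPM in HepG2. miR-142-3p had 191 CPM in MHCC97H and 2584 CPM in HepG2, while its partner miR-142-5p had 1639 CPM in MHCC97H and 2015 CPM in HepG2. miR-142 was thus another pair whose arm balance differed, with 5p the leading arm in MHCC97H. In HepG2 3p led narrowly, on 59 reads against 46 of 5p. miR-486-5p lay the other way, as given above, and under 2-fold. The myeloid and platelet miRNA miR-223-3p had 53 reads in MHCC97H and 9 in HepG2, which are 174 CPM in MHCC97H and 394 CPM in HepG2, with a ratio of 0.442 (0.216 to 1.02). 0 of the 10 arms were at 0 reads in MHCC97H and 1, miR-486-3p, was at 0 in HepG2. The part of these cells' RNA in the miR-126 values was not tested.

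miR-199a-3p and miR-199b-3p have equal counts and their reads cannot be told apart, so they were entered once among the mesenchymal miRNAs. These summed to 21652 CPM in MHCC97H and 26499 CPM in HepG2, with a median log2 ratio of -0.90. Over all 543 the median was 1.12, and it was -0.74 with zero counts set to 3 reads. Of the 8 at 10 CPM or more, 0 were called higher in MHCC97H and 2, miR-145-5p and miR-199b-5p, were called higher in HepG2, beside 20.4% for MHCC97H and 9.02% for HepG2 over all 543. In MHCC97H the most abundant, miR-143-3p, stood at 18167 CPM, and in HepG2 at 20849 CPM. miR-199a-3p or miR-199b-3p had 2477 CPM in MHCC97H and 3460 CPM in HepG2. miR-199b-5p had 667 CPM in MHCC97H and 1533 CPM in HepG2.

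Base composition was set beside the ratios because miR-126-5p is rich in A and U. A RefSeq sequence was found for 704 of the 793 miRNAs, and for 122 of the 137 that averaged 500 CPM or more. Over those 122, GC content and log2 ratio had a Pearson's r of 0.06 and a Spearman's rho of 0.19, across miRNAs that share the same 2 libraries. The 20 miRNAs with a GC content at or below that of miR-126-5p, itself included, had a median log2 ratio of 0.30, against 1.07 for the other 102. Of those 20, 1 had a lower ratio than miR-126-5p, which itself averaged 500 CPM only through its HepG2 level. The part of base composition in the ratio of miR-126-5p was not tested.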

How the data were processed

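Raw read counts per mature miRNA were deposited by the authors, with a column for each library, per the file headers. cutadapt and Bowtie are the tools named, per the submitters' processing notes. Versions, settings, miRBase release and build were not given in the sources used here. Libraries were ligated and size-selected with an NEB small RNA kit, per the labels' protocols. Ligation can favor some sequences, which affects levels between miRNAs and arm shares.

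The table has 915 entries for 793 names. 78 names repeat, 30 of them with unequal counts, and each name entered once, at its highest count. CPM was computed from the resulting totals. Intervals are exact: Clopper-Pearson for shares and read splits, conditional for odds ratios. The procedure was tested on simulated data in which reads were independent. The members, the 3 lists, the rule for repeats and the call rule were chosen with earlier results of these data known. miRNAs were named by a rule: the arms, the 5 nearest to each, the 3 pairs farthest each way, and 4 members per list by mean CPM. miR-122-5p, miR-144, miR-150-5p, miR-223, miR-486-3p, miR-142, miR-361, miR-374a, miR-30e, miR-1307 and miR-145-5p fall outside it and were named after their values were seen. Pairs with 0 reads in a cell were ordered after adding 0.5 to each count, also chosen then. Alternatives changed the scaling, the repeats, the filter, the fold and the reads per pair. Tools were R 4.3.3, edgeR 4.0.16 (scaling factors only), ViennaRNA 2.7.2, matplotlib 3.10.9, scipy 1.17.1, pandas 2.3.3, numpy 2.4.6 and Python 3.11.15.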

Additional observations from a re-analysis of the deposited data

How the results depend on the processing

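No paired analysis was possible because each cell line has 1 library. No replicate could be left out for the same reason. The odds ratio of the arms and the share of miR-126-5p in each library were identical when repeated names were summed. The ratios of miR-126-5p, miR-126-3p and their sum stayed within their counting intervals with TMM-scaled totals, with summed repeats and with 1 CPM added. Median centring moved the ratios to 0.0925 for miR-126-5p, 0.554 for miR-126-3p and 0.481 for their sum, which then met the 2-fold rule toward HepG2. Totals without the most abundant miRNAs gave 0.654 for miR-126-3p and 0.568 for their sum. The number of miRNAs called higher in MHCC97H was 111. It was 62 with median centring, 72 without the most abundant miRNAs and 68 among those averaging 500 CPM or more. The number called higher in HepG2 was 49, and it was 84 with median centring and 25 among those averaging 500 CPM or more. The part of all calls that fell to MHCC97H was 69.4%, and it was 42.5% with median centring and 49.7% without the most abundant miRNAs. With at least 50 reads per pair, 8 of 38 pairs in place of 16 of 79 had a higher 5p share in HepG2, as fewer pairs were compared. The 26 HepG2 reads of miR-126-5p limit the precision of every value that rests on them.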
